A study of Homo sapiens with 2 samples.

Results

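The neighbouring genes MDGA1, ZFAND3, BTBD9, DNAH8, KIF6 and DAAM2 on the short arm of chromosome 6 were described by their 4C-seq contacts with a reporter integrated elsewhere in the genome. They were covered by 38 of the 61607 probes, each a window of 50 kb of hg18. All 38 were annotated as overlapping their gene, and all lay on chromosome 6 between 37700001 and 40000000. The members were every probe of chromosome 6 that carries one of the 6 names. MDGA1 lies before ZFAND3, so the series starts with MDGA1 and ends with DAAM2.

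4C joins DNA ends that were held close together by crosslinking, and PCR outwards from a bait fragment then reads off its partners. The fragment here lay beside the I-SceI site of DRGFP, a reporter for repair of DNA double-strand breaks, in U2OS, a human osteosarcoma cell line. The study asked which sequences lie near that site. The cells of both libraries held the transgenes DRGFP, Tet-On and TRE-I-SceI and had no treatment recorded. The 2 libraries are independent experiments of 1 group, and no control group belongs to the study. The values therefore compare the 2 experiments, and regions within each, in cells of a single line.

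Levels are in RPM, the reads of a probe per 1000000 in its library. Library totals, recovered from the steps of the values, were 944456 reads in replicate 1 and 454091 in replicate 2, so a single read was worth 1.06 RPM in the first and 2.20 RPM in the second. A probe listed at 0 allows up to 3 reads, which is 3.18 RPM in replicate 1 and 6.61 RPM in replicate 2. PCR copies are not independent molecules, and floors and intervals cover counting error only. Chromosome 12, which held the strongest signal, took 66.4% and 69.5% of all counted reads in replicates 1 and 2, and chromosome 6 took 9.64% and 7.09%.

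The 6 genes encode proteins of unlike roles. KIF6 is a kinesin, a microtubule motor, and DNAH8 is a dynein heavy chain of the axoneme that drives the beat of sperm tails. DAAM2 is a formin that links Wnt signalling to actin assembly. MDGA1 is a membrane-anchored adhesion protein that binds neuroligin at synapses. ZFAND3 carries an AN1-type zinc finger, and BTBD9 a BTB domain and is known as a susceptibility gene of restless legs syndrome. A 4C signal reports DNA nearness and says nothing of whether a gene is expressed, and what the genes share by the choice of members is their place on the chromosome.

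The members were chosen by signal in these same libraries. Their windows of 500 kb, except that from 39000001 to 39500000, ranked among the top 10 off chromosome 12 by mean rank of RPM. The window from 38000001 to 38500000 was 1st of 5882, and those starting at 38500001, 39500001 and 37500001 were 3rd, 4th and 6th. Just outside that limit lay the window starting at 41000001, which was 11th with a mean rank of 88.3, and that starting at 36500001, which was 12th with 87.6. The 6th had 91.7. The window from 39000001 to 39500000, which holds the last probes of DNAH8 and the first of KIF6, was 21st with 81.7. Presence and level of the members in these libraries are thus given as a description, with no test.

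Reads reached 34 of the 38 member probes in replicate 1 (89.5%) and 36 in replicate 2 (94.7%), a mean of 92.1% ± 3.72 (SD, n = 2). Over all 61607 probes the share was 8.06% in replicate 1 and 8.63% in replicate 2. Both replicates had reads at 33 members (86.8%), against 2.48% of all probes. Of the other 5 members, 1 had reads in replicate 1 alone, 3 in replicate 2 alone and 1 in neither. These shares are what selected the genes, so nothing is read from the gap to the background.

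Signal was also present at probes beside the genes. The stretch of 2.5 Mb from 37500001 to 40000000 has 12 other probes, of which 9 held reads in replicate 1, 10 in replicate 2 and 7 in both. Those starting before 39000001 lie in windows whose rank chose the members, so their signal entered that choice. Of those starting after 39000001, only the probe of GLP1R had reads in both. In the 20 probes of the 1 Mb before the stretch, reads reached 13 and 16 probes, and 12 in both. In the 1 Mb after it they reached 8 and 15, with 7 in both. The stretch lies in a segment of 23.1 Mb of 6p with raised signal, whose bounds had been placed on these data. Its remaining 424 probes had reads at 58.3% and 63.9% of probes and in both at 43.2%. In that segment, probes without a gene had reads in both replicates at 43.9% of 98 positions, and probes overlapping a gene at 42.9% of 324.

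**Figure D1:**
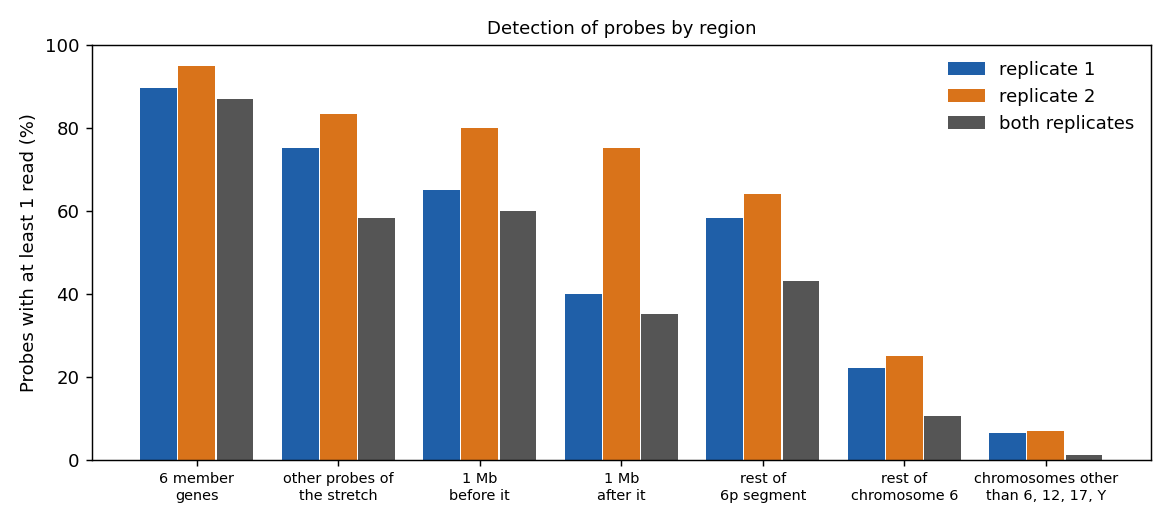
Share of 50 kb probes with at least 1 read (y axis, percent) in replicate 1, replicate 2 and both, by region (x axis). The 6 member genes reached 89.5% and 94.7%, the rest of the 6p segment 58.3% and 63.9%, and chromosomes other than 6, 12, 17 and Y 6.45% and 6.82%.

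The mean level over the 38 probes was 139 RPM in replicate 1 and 147 RPM in replicate 2, or 143 ± 5.44 RPM (SD, n = 2). The medians were 45.5 and 63.9 RPM, well below the means, because a few probes carried much of the signal. The 3 highest probes held 49.4% of the members' reads in replicate 1 and 37.1% in replicate 2. In all, the members held 0.528% of the reads of replicate 1 (95% Clopper-Pearson interval 0.513% to 0.543%) and 0.557% of those of replicate 2 (0.535% to 0.579%), on 0.0617% of the probes. That was 5.46% and 7.85% of the reads of chromosome 6. The mean in the rest of the 6p segment was 91.0 and 72.1 RPM per probe, so the members, chosen by this level, stood 1.53 and 2.03 times as high in the 2 replicates. The 1 Mb just before the stretch came closer, with 125 and 118 RPM per probe, and the 1 Mb after it had 87.5 and 70.1.

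**Figure D2:**
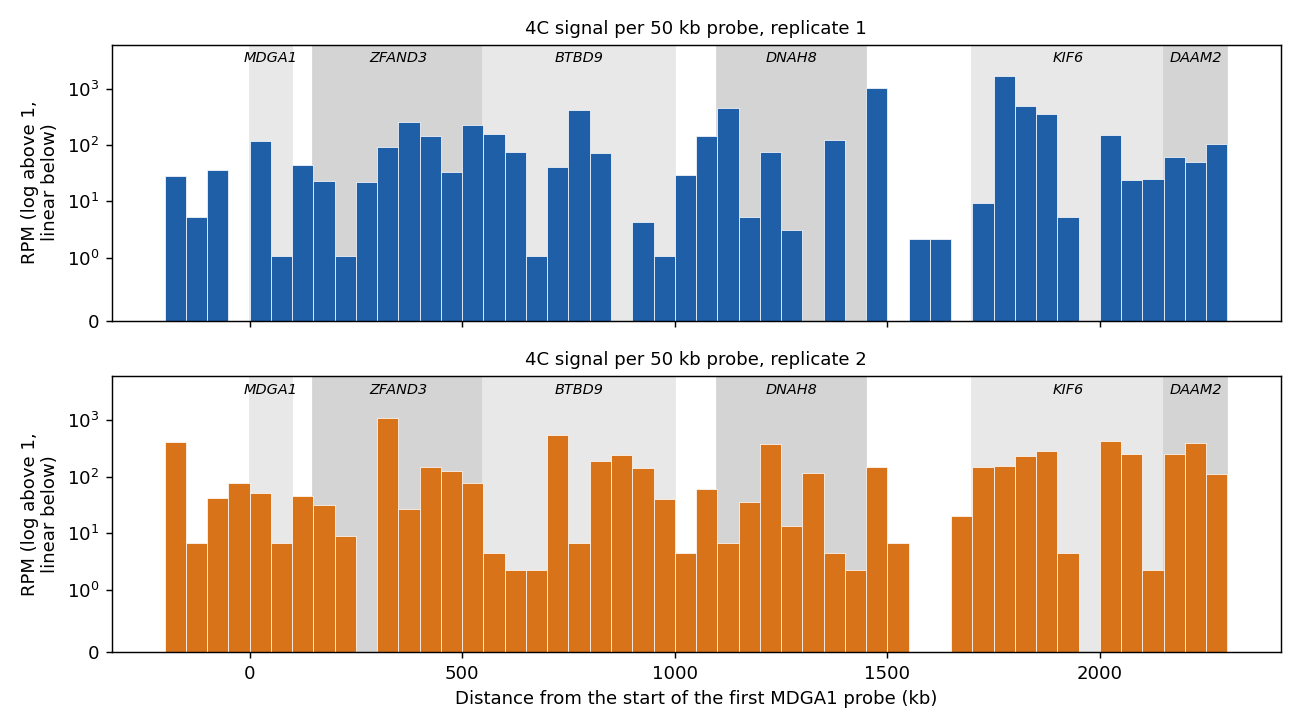
RPM of each 50 kb probe (y axis, log above 1 and linear below) by distance in kb from the start of the first MDGA1 probe (x axis), in replicate 1 (top) and replicate 2 (bottom), with the 6 genes shaded and the probes between them unshaded. Of the 50 positions, 40 are filled in both panels. The tallest bars stand at different positions, at 1657 RPM within KIF6 in replicate 1 and at 1086 RPM within ZFAND3 in replicate 2.

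Of the motor genes, KIF6 was covered by 9 probes from 39400001 to 39850000 and is transcribed from the far end of this span (minus strand in RefSeq). In replicate 1 its probes starting at 39.4, 39.45 and 39.5 Mb had 9.53, 1657 and 497 RPM, and in replicate 2 they had 148, 154 and 231 RPM. The next 3, starting at 39.55, 39.6 and 39.65 Mb, had 350.5, 5.29 and 0 RPM in replicate 1 and 284, 4.40 and 0 RPM in replicate 2. Those starting at 39.7, 39.75 and 39.8 Mb had 152, 24.4 and 25.4 RPM in replicate 1 and 425, 255 and 2.20 RPM in replicate 2. Both libraries were thus high from 39.45 to 39.55 Mb and again at 39.7 Mb. The probe at 39.65 Mb was the only member without reads in either. The probe at its start, 39.8 Mb, was low in both. KIF6 also held 4 of the 6 member probes that exceeded 100 RPM in both replicates, those at 39.45, 39.5, 39.55 and 39.7 Mb. Such probes were 15.8% of the members, 5.90% of the rest of the 6p segment and 0.102% of non-member probes off chromosome 12, by the signal that chose the members. Its mean was 302 RPM per probe in replicate 1 and 167 in replicate 2, and its single highest probe gave 60.9% of its reads in replicate 1 and 28.3% in replicate 2.

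DNAH8 was covered by 7 probes from 38800001 to 39150000 (plus strand). In replicate 1 the probes starting at 38.8, 38.85, 38.9 and 38.95 Mb had 452, 5.29, 74.1 and 3.18 RPM, and in replicate 2 they had 6.61, 35.2, 381 and 13.2 RPM. The last 3, starting at 39, 39.05 and 39.1 Mb, had 0, 124 and 0 RPM in replicate 1 and 117, 4.40 and 2.20 RPM in replicate 2. The libraries shared a high probe only at 38.9 Mb. The first probe that carries the gene's name, at 38.8 Mb, held 427 reads in replicate 1 and 3 in replicate 2. No DNAH8 probe exceeded 100 RPM in both. With 5 of 7 probes detected in both replicates, its share was the lowest of the 6 genes, while its mean, 94.1 and 79.9 RPM per probe, was the closest between replicates.

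DAAM2, the formin gene, had 3 probes from 39850001 to 40000000 (plus strand). They had 62.5, 49.8 and 103 RPM in replicate 1 and 255, 394 and 112 RPM in replicate 2, so all 3 were filled in both libraries. The first 2 were higher in replicate 2 by 4.09-fold and 7.92-fold, while the last, at 39.95 Mb, differed by 1.09-fold. At MDGA1, the adhesion gene, the 2 probes from 37700001 to 37800000 had 115 and 1.06 RPM in replicate 1 and 50.7 and 6.61 RPM in replicate 2. Both libraries were high at the first and low at the second, which holds the start of the gene (minus strand). MDGA1 was the single gene whose highest probe was the same in both, but it has only 2 probes. In 3 of the other 5 genes the highest probes of the 2 libraries lay 1 probe apart.

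The gene starts of KIF6, the member with the highest mean level, and of DAAM2, the second, are shown. Both replicates had reads at 8 of 9 KIF6 probes, some of them low, and at 3 of 3 DAAM2 probes. Restriction sites were sought because 4C recovers a piece of DNA only through them. The 250 bases before each start are from RefSeq (GRCh38.p14, while the probes are in hg18) and all 6 members matched by symbol. KIF6 lies at chr6:39725409-39725658 on the minus strand and DAAM2 at chr6:39792126-39792375 on the plus strand. Capitals mark GTAC, the site of Csp6I.
KIF6: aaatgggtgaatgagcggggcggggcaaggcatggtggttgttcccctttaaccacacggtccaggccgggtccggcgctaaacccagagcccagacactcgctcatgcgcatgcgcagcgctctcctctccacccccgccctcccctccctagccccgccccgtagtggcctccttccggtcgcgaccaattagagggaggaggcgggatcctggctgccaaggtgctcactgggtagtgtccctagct
DAAM2: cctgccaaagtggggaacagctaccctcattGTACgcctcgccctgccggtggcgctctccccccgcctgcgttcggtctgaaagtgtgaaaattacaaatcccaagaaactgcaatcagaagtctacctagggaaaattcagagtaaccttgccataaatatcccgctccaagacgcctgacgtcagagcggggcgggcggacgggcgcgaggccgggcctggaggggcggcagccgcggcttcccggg
Both sites used in the protocol, AAGCTT of HindIII and GTAC of Csp6I, read the same on both strands, so a single search covers both. None of the 6 windows held AAGCTT, which 5.04% of 27305 gene starts hold, and only that of DAAM2 held GTAC, which 25.5% of them hold. The probes that hold the starts of these 2 genes had 25.4 and 2.20 RPM for KIF6 and 62.5 and 255 RPM for DAAM2 in replicates 1 and 2. A probe is far longer than such a window, so the match describes these letters alone.

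ZFAND3 had 8 probes from 37850001 to 38250000 (plus strand). In replicate 1 the 4 probes starting at 37.85, 37.9, 37.95 and 38 Mb had 23.3, 1.06, 22.2 and 92.1 RPM, and in replicate 2 they had 30.8, 8.81, 0 and 1086 RPM. The other 4, starting at 38.05, 38.1, 38.15 and 38.2 Mb, had 257, 145, 32.8 and 229.8 RPM in replicate 1 and 26.4, 149.8, 126 and 77.1 RPM in replicate 2. The part of the gene towards its start was low in both libraries, up to 38 Mb, and the part beyond was filled at every probe. The probe at 38 Mb alone gave 72.2% of the gene's reads in replicate 2.

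BTBD9, next to it, had 9 probes from 38250001 to 38700000 (minus strand). From 38.25 to 38.45 Mb the 5 probes had 158, 76.2, 1.06, 41.3 and 409.8 RPM in replicate 1 and 4.40, 2.20, 2.20, 555 and 6.61 RPM in replicate 2. From 38.5 to 38.65 Mb the 4 probes had 70.9, 0, 4.24 and 1.06 RPM in replicate 1 and 189, 242, 141 and 39.6 RPM in replicate 2. Presence was thus nearly complete in both, while the levels ran against each other: 4 of the 5 probes nearer ZFAND3 were low in replicate 2, and 3 of the 4 nearer the gene's start were low in replicate 1. Only 2 of its 9 probes had at least 10 reads in both libraries, against 6 of 8 for ZFAND3 and 5 of 9 for KIF6.

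The longest unbroken run of probes with reads in both replicates off chromosome 12 lay here. It covered 11 probes from 38000001 to 38550000, in ZFAND3 and BTBD9, and was the longest of 990 runs. Another of 8 probes, from 38600001 to 39000000, crossed from BTBD9 through GLO1 into DNAH8 and was 3rd, after a run of 10 probes on chromosome 17. The run of 6 probes from 39700001 to 40000000, in KIF6 and DAAM2, was 4th. In replicate 2 alone, 25 probes from 38000001 to 39250000 were unbroken, and in replicate 1 alone 17 probes from 37700001 to 38550000 were, each the longest run of its library off chromosome 12. Runs use the same reads as the choice of members, so they describe its shape only.

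Per 50 kb probe, the levels of the 6 genes ran, by the mean of both replicates, from KIF6 with 235 ± 95.6 RPM over DAAM2 with 163 ± 128.9 and ZFAND3 with 144 ± 61.9 to BTBD9 with 108 ± 33.02, DNAH8 with 87.0 ± 10.02 and MDGA1 with 43.4 ± 20.9 (SD, n = 2). Of the 5 pairs of neighbours in this order, the difference exceeded the larger SD only between DNAH8 and MDGA1, by 43.6 against 20.9 RPM. KIF6 was 1st in replicate 1 and 3rd in replicate 2, and DAAM2 was 5th and 1st. MDGA1 was 6th and BTBD9 4th in both. Among the upper 5, no gene differed from the next by more than the spread between experiments.

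**Figure D3:**
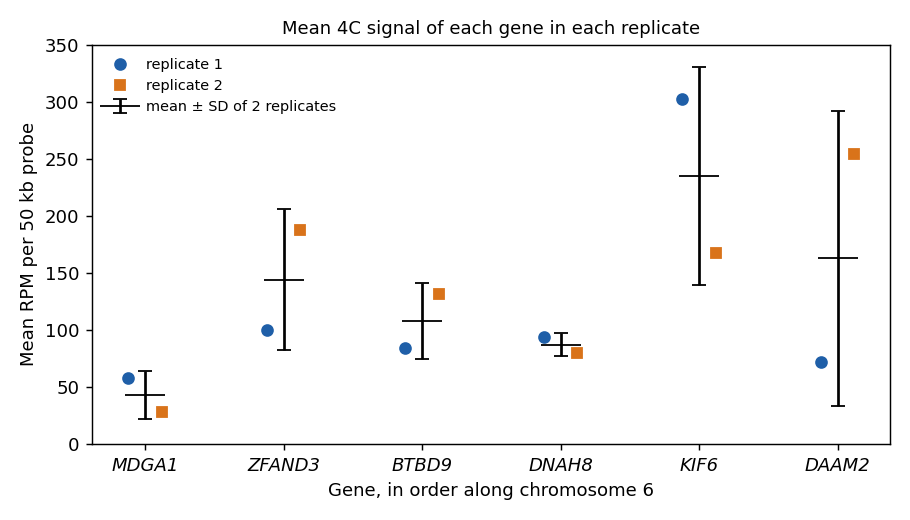
Mean RPM per 50 kb probe (y axis) of each gene, in order along chromosome 6 (x axis), in replicate 1 (circles) and replicate 2 (squares), with the mean ± SD of both (black bars). KIF6 was higher in replicate 1 (302 against 167), DAAM2 in replicate 2 (254 against 71.6), and MDGA1 was lowest in both.

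The same reads show how far the 2 libraries differed at each probe. A probe's reads in the 2 libraries were compared, given the library totals, by an exact binomial test with Benjamini-Hochberg adjustment over all 8750 probes with reads in either. The test sets a single library against another, on reads that also entered the choice of members, and treats PCR copies as independent molecules. Its calls therefore describe differences beyond counting error between these libraries and are no evidence about the loci. It called 27 of the 37 member probes with reads, 12 higher in replicate 1 and 15 higher in replicate 2, while 49.2% of all tested probes were called. Where both libraries had reads, 24 of 33 member probes were called, against 69.1% of all such probes, so the share at the members was near the background. In the rest of the 6p segment 230 of 335 probes with reads were called (68.7%).

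Among the called probes were DNAH8 at 38.8 Mb and BTBD9 at 38.45 Mb, higher in replicate 1 by 68.4-fold and 62.02-fold. ZFAND3 at 38 Mb was higher in replicate 2 by 11.8-fold, and BTBD9 at 38.6 Mb by 33.3-fold. Not called with both libraries above 100 RPM were 3 probes, ZFAND3 at 38.1 Mb with 145 and 149.8 RPM, DAAM2 at 39.95 Mb with 103 and 112 RPM, and KIF6 at 39.55 Mb with 350.5 and 284 RPM. Missing the threshold does not show equal levels. The median difference at the 33 probes was 6.66-fold in either direction, beside 6.76-fold in the rest of the segment and 9.13-fold over all non-member probes off chromosome 12. It exceeded 10-fold at 13 member probes (39.4%), against 40.4% in the rest of the segment and 48.6% of non-member probes off chromosome 12, so the members differed between libraries about as often as their surroundings.

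**Figure D4:**
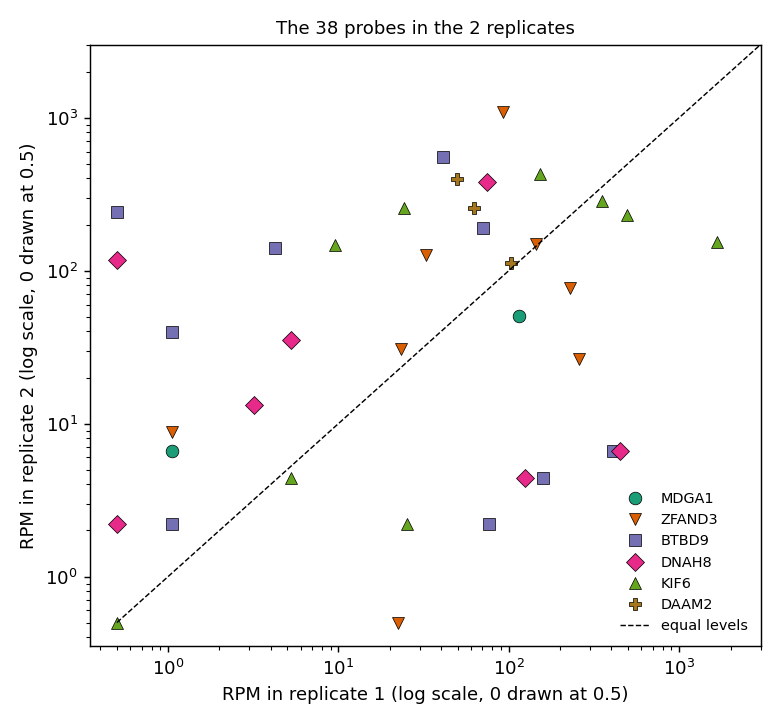
RPM in replicate 1 (x axis) and replicate 2 (y axis) of the 38 member probes on log scales, with 0 drawn at 0.5, a symbol for each gene and a dashed line of equal levels. Of the 33 probes with reads in both, 5 lie within 2-fold of the line and 13 more than 10-fold away from it.

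Across the 38 probes Pearson's r of log2(RPM + 1) between the replicates was 0.306 and Spearman's rho 0.275. In the rest of the 6p segment they were 0.298 and 0.295 over 424 probes. These are descriptions over neighbouring probes of the same 2 libraries. Limited to probes with reads in both, rho was 0.211 at the members, 0.106 in the rest of the segment and -0.102 over all 1145 such non-member probes off chromosome 12, which include those of the segment.

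Low read numbers bear on presence. Of the members, 5 in replicate 1 and 10 in replicate 2 had only 1 to 3 reads. Among probes with reads in both libraries, 1 to 3 reads in a library stood beside at least 50 in the other at 5 of 33 members. The same held for 25 of 183 probes in the rest of the segment and 298 of 1145 non-member probes off chromosome 12. With at least 10 reads asked for in each library, 18 of 38 member probes remained (47.4%), against 0.735% of all probes and 16.5% of the rest of the 6p segment. Whether such low counts are contacts or reads carried over between libraries was not tested.

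Of 1714 gene names off chromosome 12 with at least 4 probes, KIF6 and BTBD9 had the highest share of probes with reads in both replicates, 88.9% each, followed by ZFAND3 with 87.5% and DNAH8 with 71.4%. DAAM2 and MDGA1 have too few probes to be ranked. Among the other 1710 names 0.585% reached 50%, and 1520 had no such probe. Only 3 of these names exceeded 50%, and 7 tied at it. Those above were COL21A1, a collagen gene of chromosome 6, with 5 of 8 probes, DST, the gene of the cytoskeletal linker dystonin on chromosome 6, with 6 of 10, and BCAS3, a gene amplified in breast cancer on chromosome 17, with 9 of 15. Of the 7 tied names, the 2 with the highest levels in their lower replicate were CD2AP, an adaptor gene of kidney podocytes on chromosome 6, and BRIP1, a DNA repair helicase gene on chromosome 17, with 2 of 4 probes each. The mean levels of these 5 ran from 36.9 RPM for COL21A1 to 205 RPM for CD2AP in replicate 1 and from 21.2 to 306 RPM for the same genes in replicate 2. The reads behind these shares also chose the members, so the members' place at the top is a description only, and nothing is read from it. Likeness rests on 2 libraries and on shares over few probes.

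Between and beside the members, 12 of 25 listed neighbour names, older symbols included, were named in the table, on 19 probes. Reads reached 12 of these probes in replicate 1 (63.2%), 15 in replicate 2 (78.9%) and 9 in both (47.4%). In the rest of the 6p segment, which includes them, the shares were 58.3%, 63.9% and 43.2%, and over all probes 8.06%, 8.63% and 2.48%. KIAA0082 and GLO1 lie in windows whose rank chose the members. GLO1, which encodes glyoxalase I and lies between BTBD9 and DNAH8, had 147 and 59.5 RPM in replicates 1 and 2. GLP1R, the gene of the incretin receptor for GLP-1, lies between DNAH8 and KIF6 and had 1012 and 149.8 RPM. The potassium channel genes that follow it were low: KCNK5 had 2.12 RPM at both of its probes in replicate 1 and 0 in replicate 2, and KCNK17 had 0 and 19.8 RPM. This low part, from 39200001 to 39400000, lies between GLP1R and KIF6. Probes within the members were as low: DNAH8 at 39.1 Mb had 0 and 2.20 RPM. KIF6 had 5.29 and 4.40 RPM at 39.6 Mb, and no reads at 39.65 Mb. Beyond DAAM2, MOCS1, an enzyme gene of molybdenum cofactor synthesis, had 0 and 19.8 RPM.

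Farther out towards the chromosome start, PIM1, a kinase gene, had a mean of 131 and 72.7 RPM over 2 probes, and TBC1D22B had 132 and 123 RPM. RNF8, which encodes a ubiquitin ligase acting at DNA breaks, had no reads in either library at its probe. KIAA0082, now CMTR1, which encodes an mRNA cap methyltransferase, had 16.9 and 206 RPM. On the other side LRFN2, a synaptic adhesion gene, had 7.41 and 133 RPM over 4 probes with none filled in both. UNC5CL had 2754 and 511 RPM, and NFYA, a subunit gene of the CCAAT-binding factor, had 1202 and 258 RPM. The mean levels of all 6 members lay within the range of these neighbours, from RNF8 to UNC5CL, in both replicates. Each end of that range is a gene with 1 probe, so the range is wide and no likeness is read from it.

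Relatives of the 6 genes by sequence lie elsewhere in the genome. Of 78 listed names of the ZFAND, BTBD, kinesin, formin, axonemal dynein and MDGA families, 56 were in the table off chromosome 12, on 176 probes. Reads reached 8 of these probes in replicate 1 (4.55%) and 12 in replicate 2 (6.82%), and 1 in both. All gene names off chromosome 12 other than the members had reads at 8.44% and 9.01% of probes. The probe shared by both libraries belonged to FMN2, a formin gene of chromosome 1, whose mean over 9 probes was 0.941 and 1.47 RPM. Of 29 kinesin genes, replicate 1 reached 1 and replicate 2 reached 3, and of 7 axonemal dynein genes they reached 3 and 1. In the ZFAND family 1 of 5 probes and in the BTBD family 1 of 10 had reads in replicate 1, and 0 in replicate 2. In each family but the formins the probes had reads in both libraries in 0 cases, and the names that the rule gives for them, ANUBL1, BTBD1, KIF11 and DNAH1 (ties in alphabetical order), had no reads. MDGA2 was listed but was not found under that name among the genes off chromosome 12.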

How the data were processed

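Per the labels' protocols, chromatin was cut with HindIII, ligated, cut again with Csp6I and circularised, and the contacts were amplified by inverse PCR and sequenced. Each library has a signal column in the deposited table, per the file headers, over 61607 probes of 50 kb plus a mitochondrial probe and 2 summary rows, which were left out. Windows follow hg18 (per the submitters' processing notes). Which aligner, filters and counting tool made them is not given in the sources used here, and the HindIII sites per probe were not corrected for. All signal values as the authors deposited them were whole multiples of the worth of 1 read (100% within 0.1 read), so reads and library totals were recovered. The probes sum to 947121 and 454478 reads, 0.282% and 0.0852% above those totals. The exact binomial test ran on these reads with scipy 1.17.1 (threshold 0.05), and was tested on simulated data. The simulated reads were independent draws, so that check does not cover PCR copies.

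The deposited distances to genes, a value of another kind, were not used. Members and gene lists were chosen with earlier results of these data known. Named are all members, the listed neighbours found in the table, the 5 other genes most like the members (ties by the level in the lower replicate), and 1 gene of each family. The series calls the 2 experiments independent, without saying whether they were separate cultures, so SDs measure the spread between 2 libraries. Alternatives covered the reads that count as presence, summaries, scale, background, thresholds and leaving out each replicate or gene.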

Additional observations from a re-analysis of the deposited data

How the results depend on the processing

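Presence in both replicates fell from 86.8% of member probes to 71.1% with at least 2 reads in each library, 55.3% with at least 4 (chosen after seeing the data) and 47.4% with at least 10. Leaving out any member gene kept it between 85.7% and 90.3%. The mean level of 143 RPM became 54.7 as a median, 77.5 without the highest probe of each gene, and 34.95 and 28.0 as geometric means with pseudocounts 1 and 0.1. Relative to the rest of the 6p segment the level was 1.78 times as high, against 6.35 times for the rest of chromosome 6, 26.8 for all other probes off chromosome 12 and 22.9 for those overlapping a gene. The positions of 6 genes changed when ordered by share of probes in both replicates (with ties), of 5 by the median and of 4 by the highest probe. Leaving out replicate 1 or 2 changed 3 positions each. By single replicate the share with reads ran from 89.5% to 94.7%, the level from 139 to 147 RPM, its ratio to the segment from 1.53 to 2.03, and the share of reads from 0.528% to 0.557%. The other probes of the stretch ran from 75.0% to 83.3%, the relatives from 4.55% to 6.82% and the neighbour genes from 63.2% to 78.9%. The count of 27 probes that differ between libraries was the same under all 3 alternatives. No paired analysis was possible because there is a single group. Presence rests on few reads at some members, since 1 to 3 reads were the whole signal at 5 and 10 member probes. Whether depth set presence was not tested.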
